A study of Mus musculus with 6 samples.

Results

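The cells described here are 620 GFP+ lung fibroblasts (FBs) of bleomycin-treated mice, 76 after a single dose and 544 after repetitive doses, that still held transcripts of the alveolar FB genes Tcf21, Col13a1 and Hhip and had no UMI of the injury and adventitial genes Sfrp1, Cthrc1 and Pi16. They were selected on their own counts. A barcode entered the gate when it had at least 2000 unique molecular identifiers (UMIs, each standing for 1 captured transcript), no UMI of Ptprc, Pecam1 or Epcam (genes of leukocytes, endothelium and epithelium), no UMI of Sfrp1, Cthrc1 or Pi16, and at least 3 UMIs of Tcf21, Col13a1 and Hhip together. The 76 came from 938 barcodes with the required depth in the single-dose bleomycin library, and the 544 from 6044 in the repetitive bleomycin library. The same gate left 445 of 984 barcodes in the single-dose PBS library and 2948 of 5813 in the repetitive PBS library, and these gated PBS FBs are the comparison throughout. The 4 libraries of sorted lung cells held 18951 barcodes in all.

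The mice were adult males carrying the nuclear GFP reporter inserted at the Pdgfra locus, on the B6.129S4 background, and cells were sorted as GFP+ from lungs pooled from 3 mice into 1 library per condition. PBS or bleomycin, a drug that breaks DNA and injures the alveolar epithelium, was given in 50 µl by oropharyngeal aspiration. In the single-dose experiment the lungs were taken at day 14 (the sample protocol gives the dose as 2 U/kg and the treatment field gives 4 U/kg), and in the repetitive experiment there were 3 weekly doses of 1, 1 and 0.5 U/kg, with harvest 2 weeks after the last. Because every condition had 1 library, no spread between mice could be measured. No p-value is given for any difference, and each interval below is a 95% interval for counting error alone (exact Poisson for levels, exact Clopper-Pearson for shares, exact binomial for ratios).

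Alveolar FBs, which include the lipid-storing lipofibroblasts (LipoFBs), lie in the alveolar wall beside the type 2 epithelial cells (AEC2s). Tcf21 encodes a transcription factor of the lung mesenchyme that is required for LipoFBs, Col13a1 encodes a membrane-spanning collagen, and Hhip encodes a decoy that binds hedgehog ligands and is also used as a marker of ductal myofibroblasts. These FBs handle lipid and retinoid, supply growth factors to the epithelium, and after injury can turn to making matrix. Sfrp1 and Cthrc1 mark FBs that have responded to injury, and Pi16 marks adventitial FBs of the vessel and airway sheath.

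Of the 4 libraries the smallest total was 7201081 UMIs (PBS, single-dose) and the largest 68354458 UMIs (bleomycin, repetitive). Per barcode the repetitive bleomycin library was the least deep, with a median of 2478 UMIs. The medians were 6780.5 (single-dose PBS), 10711 (single-dose bleomycin) and 10178 (repetitive PBS). At least 2000 UMIs were found in 56.3% of the repetitive bleomycin barcodes, against 92.8%, 92.4% and 94.7% in those libraries. Gated FBs had a median of 6820 UMIs (single-dose PBS), 9279 (single-dose bleomycin), 10376.5 (repetitive PBS) and 9093.5 (repetitive bleomycin), and the median mitochondrial share lay between 2.45% and 3.76%. The single-dose libraries shared 2 barcode sequences and the repetitive libraries 28, of which 1 was in the gate in both. Levels are UMIs summed over the FBs of a group and expressed as CPM (counts per 1000000 UMIs of the group), so that deeper FBs weigh more. Log2 ratios are those of 2 CPM values after adding 1 CPM to each, which understates the change of genes near zero, while their intervals refer to the ratio without the added CPM.

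The gate held 8.10% of the single-dose bleomycin barcodes (6.44 to 10.0%) against 45.2% of the PBS barcodes (42.1 to 48.4%). In the repetitive experiment it held 9.0% (8.29 to 9.75%) against 50.7% (49.4 to 52.0%). When every barcode was thinned to 2000 UMIs the expected shares were 7.63% and 24.9% in the single-dose experiment and 8.03% and 19.0% in the repetitive experiment, so the gap was narrower at equal depth and kept its direction. A lower share of a library can reflect fewer such FBs, more of the other sorted cells, or less RNA of the gate genes per FB, and these cannot be told apart here.

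In the bleomycin libraries the rule on injury and adventitial genes removed more barcodes than the alveolar rule. Of the barcodes without leukocyte, endothelial or epithelial gate genes, 16.5% had no UMI of Sfrp1, Cthrc1 or Pi16 after a single dose of bleomycin against 69.5% after PBS, and 21.1% against 67.3% in the repetitive experiment. Sfrp1, which encodes a secreted Wnt antagonist, had a UMI in 75.6% of these barcodes after a single dose and in 68.8% after repetitive doses, against 18.0% and 25% after PBS. The alveolar rule alone, with no demand on the injury genes, was met by 57.9% of them after a single dose and 51.9% after repetitive doses, against 68.9% and 79.3% after PBS. Of the barcodes with a UMI of Sfrp1 or Cthrc1 but none of Pi16, called injury-positive FBs here (443 and 2756 barcodes), 65.0% and 65.7% met the alveolar threshold too. The gated bleomycin FBs were thus a minority of the bleomycin barcodes that met the alveolar threshold.

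**Figure D1:**
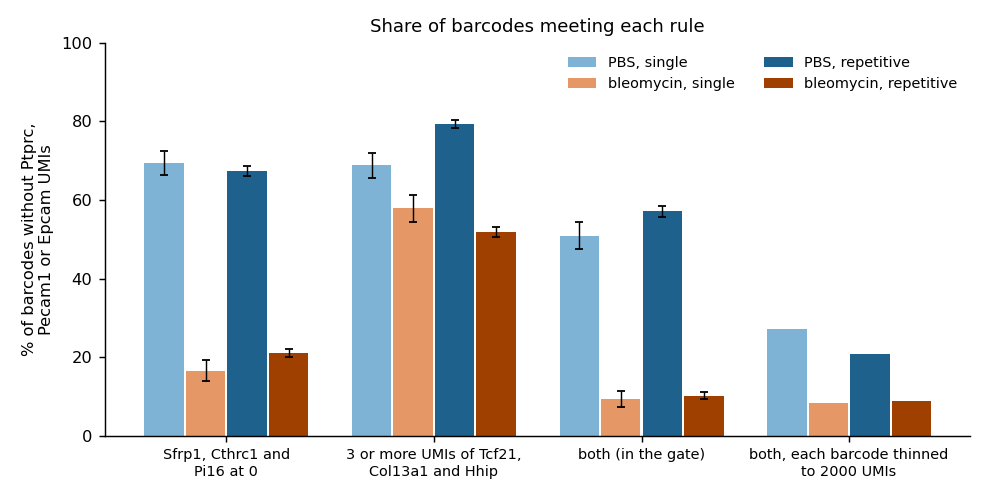
Share of barcodes (%, y axis) meeting each rule of the gate, among barcodes with at least 2000 UMIs and none of Ptprc, Pecam1 or Epcam, with 1 bar per library and exact 95% intervals for counting error (none is drawn for the thinned shares, which are expected values). The bleomycin bars stand at 57.9% and 51.9% where only the alveolar threshold applies and at 16.5% and 21.1% where Sfrp1, Cthrc1 and Pi16 must be at 0.

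The gate genes themselves are a description of what the rule took. Tcf21 stood at 902 CPM (868 to 937) in the single-dose PBS FBs and 630 CPM (575 to 689) in the bleomycin FBs, and at 627 CPM (619 to 636) and 373 CPM (357 to 389) in the repetitive pair. Col13a1 was at 357 and 328 CPM in the single-dose pair and at 318 and 474 CPM in the repetitive pair. Hhip went the other way from Tcf21, with 45.6 CPM after PBS and 151 CPM after bleomycin in the single-dose experiment and 24.7 and 273 CPM in the repetitive experiment. A UMI of Hhip was present in 43.4% of the single-dose and 46.3% of the repetitive bleomycin FBs, against 8.99% and 8.85% of the PBS FBs. At 2000 UMIs per FB these shares were 21.9%, 28.1%, 4.26% and 3.16%. In barcodes with a Ptprc UMI, which should lack Hhip, the unthinned share was 7.50% after a single dose and 9.50% after repetitive doses, at median depths of 6482 and 4550 UMIs, and in the PBS libraries it was 0 of 18 and 0 of 128 barcodes, which allows up to 18.5% and 2.84%.

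Most gated bleomycin FBs would have passed on Tcf21 and Col13a1 alone, 69 of 76 after a single dose (90.8%) and 465 of 544 after repetitive doses (85.5%), against 96.9% and 98.7% of the gated PBS FBs. FBs in which Hhip UMIs outnumbered those of Tcf21 and Col13a1 together made up 6 of 76 and 92 of 544 (16.9%), against 8 of 445 and 35 of 2948 after PBS (1.19%). At the threshold itself, 5 single-dose and 85 repetitive bleomycin barcodes had exactly 3 UMIs of the gate genes and 7 and 135 had 2. The bleomycin gate therefore held relatively more FBs that entered by way of Hhip than the PBS gate did.

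The label was checked against markers outside the gate. Pdgfra, whose locus drives the reporter, was at 392 CPM in the single-dose and 660 CPM in the repetitive bleomycin FBs, against 574 and 692 CPM in the PBS FBs. Col1a1, Col1a2 and Col3a1, expressed by FBs in general, were each higher than in the PBS FBs and are described with the collagens below. The leukocyte list of 8 markers summed to 199 CPM (single-dose) and 85.3 CPM (repetitive) in the bleomycin FBs against 229 and 28.8 CPM in the PBS FBs, with no marker at 0. The epithelial list of 7 summed to 67.7 and 78.0 CPM against 765 and 139 CPM, and Krt18, Cdh1 and Cldn18 were at 0 after a single dose and Krt8 after repetitive doses. The summed levels of the endothelial, mural and plasma cell markers were higher in the bleomycin than in the PBS FBs of both experiments. The 6 endothelial markers summed to 133 and 27.5 CPM against 42.0 and 18.1 CPM, the 4 mural markers to 76.8 and 99.1 CPM against 19.0 and 18.5 CPM, and the 4 plasma cell markers to 13.0 and 33.5 CPM against 5.33 and 3.28 CPM. The 4 mesothelial markers summed to 2.60 and 0.187 CPM against 0 and 0.252 CPM and the 3 erythrocyte markers to 0 and 0.375 CPM against 2.00 and 0.379 CPM. The adventitial list summed to 6132 CPM after a single dose and 9331 CPM after repetitive doses, and to 15235 and 12402 CPM in the PBS FBs, where Gsn alone held 13600 and 10877 CPM. The sums thus mostly reflect Gsn. Taken gene by gene, the tested adventitial markers had a median log2 ratio of −0.43 after a single dose and 0.27 after repetitive doses. The repetitive median kept its sign under all 12 alternative settings (0.0044 to 0.66), as did the single-dose median (−0.44 to −0.15). For the FBs led by Hhip, described below, the label of alveolar FBs is uncertain. They had more of several ductal myofibroblast genes and less of the alveolar genes than the FBs with no Hhip UMI. The split itself takes FBs with few Tcf21 and Col13a1 UMIs relative to Hhip, also a marker of ductal myofibroblasts. Their higher ductal genes and lower alveolar genes are therefore a description. After repetitive bleomycin their alveolar list still summed to 13849 CPM, against 22360 CPM in the FBs with no Hhip UMI. The part of cells or RNA of other types in the results below was not tested.

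Of the 20 alveolar FB genes outside the gate, 18 were read at more than 100 CPM in the bleomycin FBs of each experiment, but not the same 18. The genes below that level were Pparg in both experiments, Fgfr4 after a single dose and Slc7a10 after repetitive doses. Npnt, the matrix ligand nephronectin, was at 1168 CPM (1093 to 1247) in the single-dose bleomycin FBs against 1352 CPM (1310 to 1394) after PBS, and at 2051 CPM (2013 to 2090) against 2082 CPM (2066 to 2098) in the repetitive experiment, log2 ratios of −0.21 and −0.02. Ces1d, a carboxylesterase of lipid breakdown, was higher after bleomycin in both experiments, at 1014 CPM (944 to 1088) against 804 CPM and 1089 CPM (1061 to 1117) against 812 CPM. Npnt and Ces1d were thus within 1 of the PBS FBs on the log2 scale in both experiments. Hsd11b1, which regenerates active glucocorticoid, was at 1547 and 1360 CPM against 1979 and 1770 CPM. Wnt2, a Wnt ligand of the alveolar mesenchyme, was at 169 and 129 CPM against 199 and 173 CPM. Macf1, a cytoskeletal linker, was at 949 and 5543 CPM against 776 and 4768 CPM.

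Of the same list, 5 genes were lower by a log2 ratio of more than 1 in both experiments. Inmt, an amine methyltransferase, was at 3989 CPM (3849 to 4133) in the single-dose bleomycin FBs against 10656 CPM (10540 to 10774), and at 2117 CPM against 5265 CPM in the repetitive experiment, log2 ratios of −1.42 and −1.31. G0s2, an inhibitor of the lipase that empties lipid droplets, was at 644 against 1566 CPM and at 516 against 1578 CPM. Selenbp1, a selenium-binding protein, was at 266 against 985 CPM and at 233 against 577 CPM. Cdo1, the cysteine dioxygenase, had a log2 ratio of −1.16 in each experiment, and the monooxygenase Fmo2 had −1.38 and −1.11. They were the 5 past a log2 ratio of −1 after a single dose, and after repetitive doses they were joined by the amino acid transporter Slc7a10 at −1.09.

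Lpl, the lipase that releases fatty acids from circulating lipoproteins, was the exception in the other direction. It was at 255 CPM (221 to 293) and 307 CPM (292 to 322) in the bleomycin FBs against 46.0 and 42.7 CPM in the PBS FBs, log2 ratios of 2.45 and 2.82. A UMI of Lpl was in 67.1% and 64.2% of the bleomycin FBs (32.7% and 36.6% after thinning), and in 42.5% and 41% of the Ptprc-positive barcodes (15.6% and 33.2%). After repetitive doses the thinned share in the FBs was thus close to that in the Ptprc-positive barcodes. The part of background RNA in the Lpl levels was not tested, nor was Lpl made by the Ptprc-positive cells themselves. Plin2, which coats lipid droplets, did not take the same direction in the 2 experiments, with 215 against 165 CPM after a single dose (0.38, interval 0.12 to 0.64) and 183 against 324 CPM after repetitive doses (−0.82, interval −0.92 to −0.73). Pparg, the lipid regulator, had few UMIs and was at 9.11 and 25.7 CPM against 8.66 and 29.9 CPM. Over the whole list the median log2 ratio was −0.53 after a single dose (19 genes with at least 100 UMIs in the compared groups) and −0.46 after repetitive doses (20 genes), where the median over all genes tested was 0.00 and 0.09. In the single-dose experiment 1 of the 19 was higher and 5 were lower by a log2 ratio of 1, against 3.53% and 3.86% of all 4453 genes tested. In the repetitive experiment 1 of 20 was higher and 6 were lower, against 4.14% and 2.04% of 11158 genes. Of the 4261 genes tested in both experiments, 1.78% were higher and 1.22% lower in both.

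**Figure D2:**
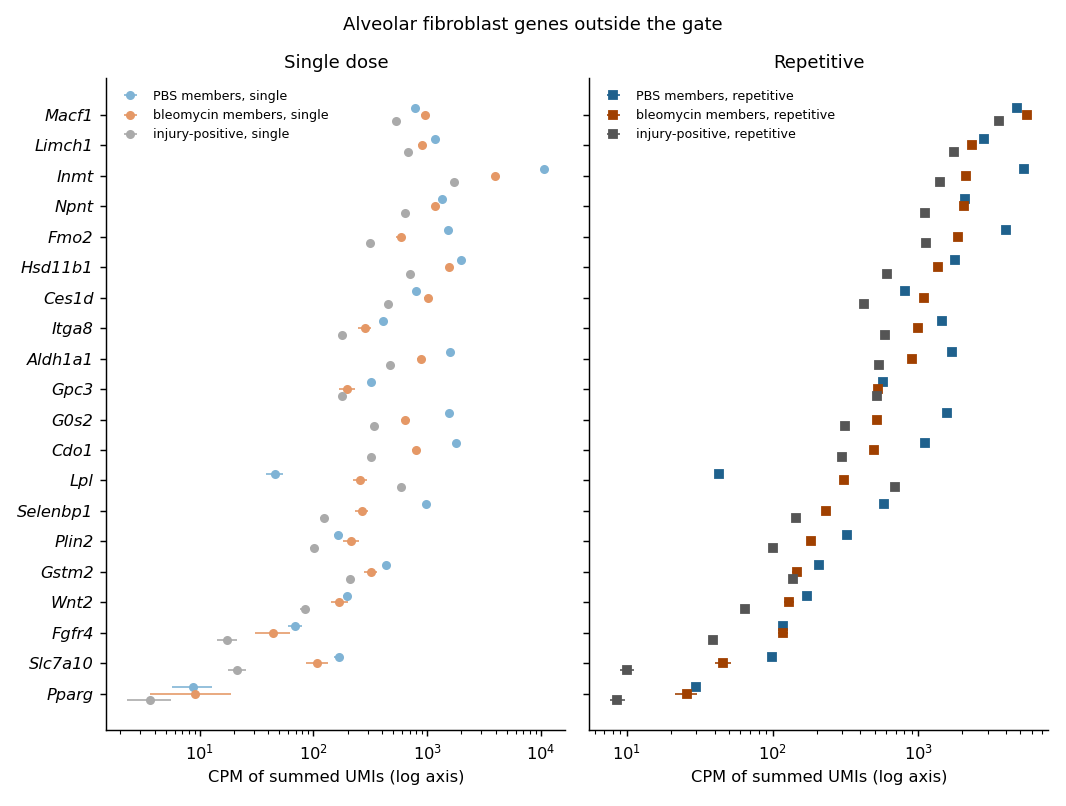
Level of each alveolar FB gene outside the gate (CPM of summed UMIs, log axis) in gated PBS FBs, gated bleomycin FBs and injury-positive bleomycin FBs, single-dose experiment at left and repetitive at right, with exact 95% Poisson intervals for counting error. In all genes but Lpl the gated bleomycin FBs lie to the right of the injury-positive FBs, and for Inmt, G0s2, Cdo1, Selenbp1 and Fmo2 they lie well to the left of the PBS FBs.

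The elastic fibre genes were raised in the same FBs. Eln, which encodes tropoelastin, was at 7281 CPM (7092 to 7475) in the single-dose bleomycin FBs against 622 CPM (594 to 651) after PBS, and at 4150 CPM (4095 to 4205) against 544 CPM (536 to 552) in the repetitive experiment, log2 ratios of 3.55 and 2.93. Ltbp2, a microfibril-associated protein of elastic fibres, was close to absent from the PBS FBs, at 3.66 CPM (11 UMIs) and 7.67 CPM, and stood at 475 CPM (428 to 527) and 657 CPM (635 to 679) in the bleomycin FBs. A UMI of Ltbp2 was found in 71.1% of the single-dose and 75% of the repetitive bleomycin FBs against 1.57% and 3.56% of the PBS FBs. After thinning these were 42.6%, 52.4%, 0.500% and 1.12%. In the Ptprc-positive barcodes of the bleomycin libraries the unthinned share was 25% and 17%.

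Mfap4, another microfibril protein, was at 11839 CPM against 2562 CPM after a single dose and at 2403 against 970 CPM after repetitive doses. Fbn1, the microfibril core, had log2 ratios of 2.36 and 1.30, and the cross-linking enzymes Lox and Loxl1 had ratios of 1.23 and 0.85 after a single dose and 0.58 and 1.03 after repetitive doses. Adamtsl2, Emilin1 and Mfap2 were each higher by more than 1 in both experiments. The exceptions were Fbln5 (−0.03 and −0.04) and Ltbp4 (−0.65 and −0.33), which encode 2 proteins that direct the deposition of elastin onto microfibrils. In all, 9 of 13 genes were higher by a log2 ratio of 1 after a single dose (median 1.24) and 10 of 13 after repetitive doses (median 1.30), against 3.53% and 4.14% of all genes tested, and none was lower by 1 in either.

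Every collagen gene tested was higher in the bleomycin FBs than in the PBS FBs. Col1a1 was at 1375 CPM (1293 to 1460) against 675 CPM and at 1601 CPM (1567 to 1635) against 519 CPM, and Col3a1 at 3615 CPM (3482 to 3752) against 979 CPM and 3694 CPM (3642 to 3746) against 880 CPM. Col5a2, of the fibril-nucleating type V collagen, had the highest log2 ratio of the list after a single dose, 2.77, and was at 1.93 after repetitive doses. The basement membrane chains Col4a1 and Col4a2 had ratios of 2.05 and 2.20 after a single dose and 1.79 and 2.03 after repetitive doses. The list median was 1.52 over 12 genes and 1.44 over 14 genes, with 10 and 12 of them past 1, against 3.53% and 4.14% of all genes.

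The gated bleomycin FBs, in which no UMI of Sfrp1 or Cthrc1 was detected at this depth, had more Fn1, Timp1 and Tnc of the fibrotic injury list than the gated PBS FBs. Fn1, encoding fibronectin, was at 4771 CPM (4618 to 4928) against 597 CPM after a single dose and at 3918 CPM (3865 to 3971) against 999 CPM after repetitive doses. Timp1, an inhibitor of matrix proteases, was at 1004 CPM (934 to 1077) against 41.0 CPM and at 228 CPM (215 to 241) against 36.3 CPM. Tnc, which encodes tenascin C, was at 436 against 21.0 CPM and at 847 against 251 CPM. After thinning, the share of gated bleomycin FBs with a UMI against that of Ptprc-positive barcodes was 93.9% against 57.7% (single-dose) and 91.3% against 41.8% (repetitive) for Fn1, 54.6% against 25.6% and 24.4% against 12.4% for Timp1, and 42.7% against 6.11% and 50.8% against 8.19% for Tnc. Fst, the activin antagonist follistatin, was at 57.3 CPM (44 UMIs) against 1 UMI in all single-dose PBS FBs, and at 55.8 CPM (298 UMIs) against 12 UMIs in the repetitive PBS FBs. A Fst UMI was in 15.8% (8.43 to 26) and 8.82% (6.58 to 11.5) of the gated bleomycin FBs and in 12.5% (4.19 to 26.8) and 5% (2.42 to 9.0) of the Ptprc-positive barcodes, and Grem1, a BMP antagonist with no UMI in the PBS FBs, had 4 and 18 UMIs in 5.26% and 1.29% of the FBs against 2.5% and 4.5% of those barcodes. With overlapping intervals for Fst and so few UMIs of Grem1, these shares cannot tell, for either gene, expression in the gated FBs from background RNA. Of the fibrotic injury genes tested, 7 of 11 (single-dose) and 10 of 14 (repetitive) were past 1, against 3.53% and 4.14% of all genes tested. None was below −1, and the medians were 1.39 and 1.86. Without Spp1, whose background is given next, 6 of 10 were past 1 after a single dose, with a median of 1.26. Without Spp1 and Fst 8 of 12 were past 1 after repetitive doses, with a median of 1.54.

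Spp1, encoding osteopontin, needs its background beside it. Its level was 598 CPM (544 to 655) in the single-dose bleomycin FBs, where 85.5% had a UMI, against 2 UMIs in all the gated PBS FBs. Yet 87.5% of the Ptprc-positive barcodes of the same library had a Spp1 UMI, 57.2% after thinning against 49.0% of the gated FBs, and the median FB had 3.49 Spp1 UMIs per 10000 where the median Ptprc-positive barcode had 3.94. The share in the gated FBs was therefore no higher than that background, although macrophages among the Ptprc-positive barcodes can make Spp1 themselves, and is not read as expression. In the repetitive bleomycin FBs Spp1 was at 60.3 CPM, with a UMI in 14.5% of them against 38% of the Ptprc-positive barcodes. In injury-positive FBs of the 2 libraries Spp1 reached 4067 and 1851 CPM.

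**Figure D3:**
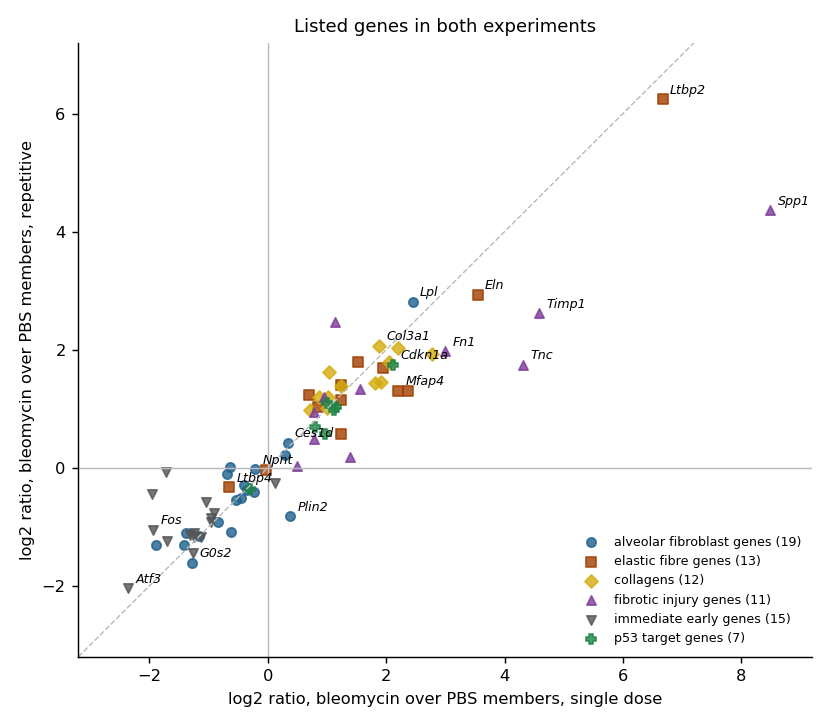
Log2 ratio of gated bleomycin over gated PBS FBs for listed genes, single-dose experiment on the x axis and repetitive on the y axis, 1 point per gene with at least 100 UMIs in both experiments and the number of genes in brackets; the dashed line marks equal ratios. Elastic fibre genes, collagens and fibrotic injury genes lie mostly in the upper right, immediate early genes and most alveolar genes in the lower left, and Spp1, Tnc and Timp1 fall below the line.

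Signals that alveolar FBs send to their neighbours did not move as a group, although some were past a log2 ratio of 1. The list of 17 ligands and modulators had median log2 ratios of −0.15 (11 tested) and 0.22 (15 tested). After a single dose 2 were past 1 and 1 was below −1, against 3.53% and 3.86% of all genes tested. After repetitive doses 4 were past 1 and none was below −1, against 4.14% and 2.04% of all genes tested. Igf1, a growth factor for epithelium and mesenchyme, was at 402 CPM (359 to 450) against 89.3 CPM after a single dose and at 349 CPM (333 to 365) against 105 CPM after repetitive doses. The chemokine Cxcl12 was at 253 against 105 CPM and at 106 against 26.1 CPM. Wnt5a, the non-canonical Wnt ligand, was at 36.5 against 10.7 CPM and at 52.3 against 11.9 CPM. Fgf7, an epithelial mitogen, was below −1 after a single dose, at 76.8 against 172 CPM, and was at 119 against 160 CPM after repetitive doses, while Fgf10 was at 24.7 against 31.3 CPM and at 146 against 160 CPM, and Bmp4 at 154 against 171 CPM and at 182 against 156 CPM. Igf1 and Cxcl12 were thus the ligands past 1 in both experiments among those with at least 100 UMIs, where 1.78% of all genes were, a number that Wnt5a reached in the repetitive experiment alone, and Fgf10 and Bmp4 differed by less than 1 in either.

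Acute phase genes were mostly higher after a single dose and moved less evenly after repetitive doses. Hp, encoding haptoglobin, was at 836 CPM (772 to 903) against 64.6 CPM and at 803 CPM (779 to 827) against 63.5 CPM, nearly the same in the 2 experiments. Saa3, a serum amyloid, was at 49.5 CPM (38 UMIs) against 3 UMIs in the single-dose PBS FBs and at 19.5 CPM (104 UMIs) against 10 UMIs in the repetitive PBS FBs. A Saa3 UMI was in 39.5% (28.4 to 51.4) and 6.07% (4.21 to 8.41) of the gated bleomycin FBs and in 35% (20.6 to 51.7) and 4% (1.74 to 7.73) of the Ptprc-positive barcodes. The intervals overlap, so these shares cannot tell Saa3 expression in the gated FBs from background RNA. Ccl2, which attracts monocytes, was at 193 against 13.3 CPM after a single dose and at 92.6 against 113 CPM after repetitive doses. The list had 7 of 9 genes past 1 after a single dose (median 1.2), and 5 of 14 past 1 with 1 below −1 after repetitive doses (median 0.50), where 3.53% and 4.14% of all genes were past 1 and 2.04% were below −1 after repetitive doses. Saa3 was among the 5 after repetitive doses. The gene below −1 was Mt1, a metallothionein.

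Part of the targets of p53, the DNA damage regulator, were higher in the gated bleomycin FBs. Cdkn1a, which encodes the cell cycle inhibitor p21, was at 328 CPM (289 to 371) against 74.6 CPM after a single dose and at 384 CPM (368 to 401) against 114 CPM after repetitive doses. The proapoptotic Bax had log2 ratios of 1.12 and 0.98 and Phlda3, an inhibitor of Akt, of 1.00 and 1.10. Gdf15, a stress-induced cytokine, had 1 UMI in the single-dose bleomycin FBs and none in their PBS FBs, and was at 52.5 CPM (46.5 to 59.0) against 5.84 CPM in the repetitive experiment. Of the 12 targets, 4 of 7 tested were past 1 after a single dose and 7 of 12 after repetitive doses, against 3.53% and 4.14% of all genes, with medians of 1.00 and 1.06. Fas, which encodes a death receptor, was at 52.1 against 64.6 CPM and at 83.0 against 106 CPM. No cycling gene reached 100 UMIs in the compared groups of either experiment, and Mki67 was at 5.21 and 2.06 CPM in the bleomycin FBs.

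Most immediate early genes were lower in the gated bleomycin FBs than in the gated PBS FBs after a single dose, as were some xenobiotic enzymes in both experiments. Fos was at 639 CPM (584 to 698) against 2440 CPM and at 1223 CPM (1194 to 1253) against 2526 CPM, and Atf3, a stress-induced transcription factor, at 41.7 against 218 CPM and 221 against 914 CPM. Below −1 were 11 of 15 immediate early genes after a single dose (median −1.25) and 8 of 16 after repetitive doses (median −0.98), against 3.86% and 2.04% of all genes. The glutathione transferases Gstm1 (453 against 1889 CPM and 268 against 831 CPM) and Gsta3 (311 against 897 CPM and 375 against 938 CPM) were lower by more than 1 in both experiments, and of the list of 16 enzymes 3 of 12 tested were below −1 after a single dose and 2 of 15 after repetitive doses, against the same 3.86% and 2.04%, none was past 1, and the medians were −0.41 and −0.57. Aldh2, which oxidizes acetaldehyde, had ratios of −0.68 and −0.96, whereas Adh1, an alcohol dehydrogenase that also acts on retinol, had 0.57 and 0.73.

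Among genes on no list, the 10 with the highest mean ratio past 1 in both experiments were Nnat, Plac8, Ctsc, Nrcam, Mmp2, Cpm, Nrep, C1qtnf6, Pltp and Ccdc80. Nnat, encoding the small membrane protein neuronatin, was at 195 against 9.0 CPM after a single dose and at 59.4 against 3.91 CPM after repetitive doses. Mmp2, a gelatinase, was at 806 against 234 CPM and at 917 against 130 CPM, and Nrcam, a cell adhesion molecule, at 238 against 34.6 CPM and 471 against 114 CPM. The 10 lowest were Igfbp3, Ppl, Tppp3, Cox8b, Gria1, Kcnk2, Nr1d1, Rgcc, Faim2 and Chst8. In the single-dose bleomycin FBs several of them had few UMIs, with 1 of Ppl (log2 interval −10.2 to −2.42) and 4 of Kcnk2. Cox8b and Chst8 had 5 each and Gria1 had 6. Igfbp3, which binds insulin-like growth factors, was at 14.3 CPM against 842 CPM after a single dose and at 88.8 CPM against 680 CPM after repetitive doses, and Gria1, a glutamate receptor subunit, was at 7.81 against 44.3 CPM and 34.3 against 142 CPM. Nr1d1, a repressor of the circadian clock, was at 14.3 against 104 CPM and at 21.4 against 52.3 CPM.

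Against the injury-positive FBs of the same library, the gated bleomycin FBs had more of the alveolar genes and less of the injury genes. Both classes were defined by gate genes, so this is a description. Of the alveolar genes 18 of 19 (single-dose) and 19 of 20 (repetitive) were higher in the gated FBs, with medians of 0.92 and 0.73. Ces1d was at 1014 against 455 CPM and at 1089 against 425 CPM, Slc7a10 at 108 against 21.3 CPM and 45.9 against 10.0 CPM, and Npnt at 1168 against 640 CPM and 2051 against 1105 CPM. The exception was Lpl, at 255 against 587 CPM and 307 against 689 CPM. Past 1 were 9 of 19 genes after a single dose, against 1.12% of 6612 genes tested, and 5 of 20 after repetitive doses, against 0.762% of 11805 genes.

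The injury lists split. Elastic fibre genes were much alike in the 2 classes, with medians of 0.13 and 0.25, Eln at 7281 against 6450 CPM and 4150 against 3489 CPM, and Ltbp2 at 475 against 454 CPM and 657 against 608 CPM. Mfap4 was higher in the gated FBs, at 11839 against 3975 CPM and at 2403 against 1681 CPM. Collagens were lower in the gated FBs after a single dose (median −0.43) and nearer after repetitive doses (−0.18), with Col1a1 at 1375 against 3324 CPM and 1601 against 2458 CPM. Fibrotic injury genes had medians of −0.74 and −0.79. Below −1 were 7 of 16 of them after a single dose, against 3.33% of all genes, and 8 of 17 after repetitive doses, against 3.57%. Genes were chosen for testing on the UMIs of both classes together. The gated FBs held 768147 UMIs against 6002240 after a single dose, and 5336285 against 35128752 after repetitive doses. A gene nearly absent from the gated FBs could thus be tested through the injury-positive FBs alone. Sfrp1 and Cthrc1 also defined that class, so these counts and medians are a description. Fn1 was at 4771 against 4561 CPM and 3918 against 3225 CPM and Tnc at 436 against 350 CPM and 847 against 557 CPM. The gated FBs thus had Fn1 and Tnc at or above the level of the injury-positive FBs, with less Col1a1 and Cxcl12 (253 against 738 CPM and 106 against 367 CPM).

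When only injury-positive FBs that also met the alveolar threshold were used (288 and 1811 barcodes), the alveolar median was 0.55 in both experiments and the fibrotic injury median −0.30 and −0.34. Acute phase genes had medians of −0.61 and −0.49 there. The injury-positive FBs were deeper, with medians of 12465 and 11607 UMIs, and depth bears on whether a barcode shows a UMI of an injury gene. With barcodes of at most 10000 UMIs in both classes the alveolar medians were 0.77 and 0.73, the fibrotic injury medians −0.54 and −0.35, and the collagen medians −0.28 and 0.02. Of all 6298 genes tested in both libraries, 0.333% were higher in the gated FBs than in all injury-positive FBs by a log2 ratio of 1 in both, and 1.62% were lower. Genes were chosen for testing on the UMIs of both classes together, and the injury-positive FBs held more UMIs. Genes low in the gated FBs were therefore tested more readily than genes low in the injury-positive FBs, and these shares are not compared with each other. Against all injury-positive FBs the 6 highest on no list were Chchd10, Angptl8, Scn3a, Mapt, Fabp3 and Dpep1. Of these Fabp3, a fatty acid carrier, was at 44.3 against 15.8 CPM and 37.7 against 14.6 CPM. The 6 lowest on no list, also against all injury-positive FBs, were Col8a1, Thbs4, Tnfrsf11b, Cxcl13, Cxcl9 and Cilp. Tnfrsf11b, a decoy receptor of the TNF family, had no UMI in any gated bleomycin FB. It was at 18.7 and 5.69 CPM in all injury-positive FBs, and at 3.89 and 0.957 CPM in those that met the alveolar threshold. Against the latter, single-dose Cxcl13 was at 41.7 against 44.4 CPM and Thbs4 at 1.30 against 1.56 CPM. After repetitive doses they were at 3.00 against 33.8 CPM and 0.187 against 2.28 CPM. Cilp was at 6.51 against 24.9 CPM and 7.87 against 55.2 CPM in the 2 experiments.

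**Figure D4:**
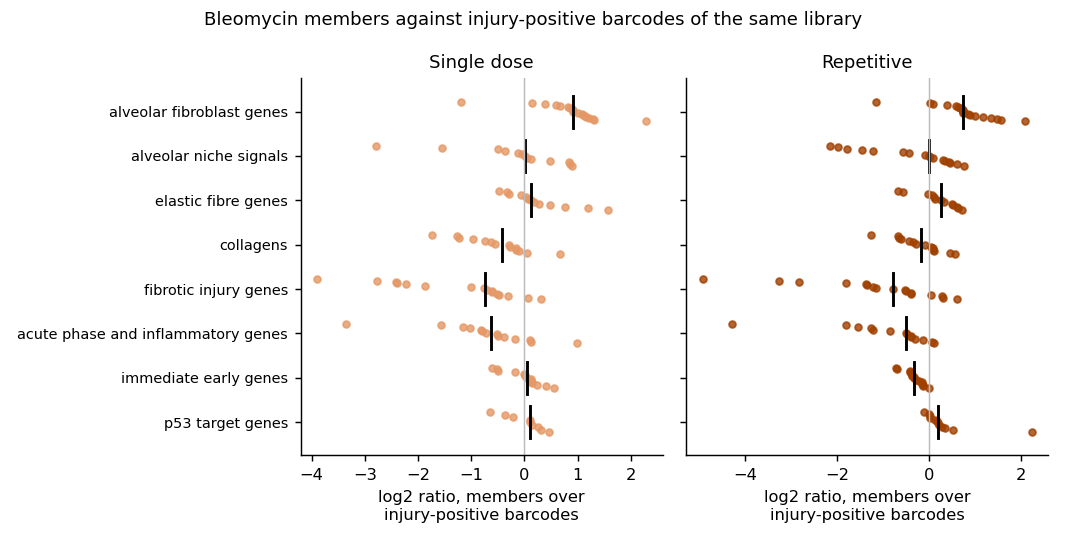
Log2 ratio (x axis) of gated bleomycin FBs over injury-positive FBs of the same library for each gene with at least 100 UMIs, by list, single-dose at left and repetitive at right; black bars mark list medians. Alveolar genes lie to the right of 0 apart from Lpl, elastic fibre genes scatter around it, and fibrotic injury and acute phase genes lie mostly to the left.

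The gated bleomycin FBs were not uniform. Eln had a UMI in every single-dose and 98.3% of the repetitive bleomycin FBs, but ranged from 5.50 to 213 UMIs per 10000 between the 10th and the 90th percentile after a single dose and from 5.19 to 91.0 after repetitive doses. The PBS FBs ran from 0 to 13.6 and from 0 to 12.7. Of the Ptprc-positive bleomycin barcodes 85% and 46% had an Eln UMI (55.7% and 29.5% after thinning, against 94.5% and 91.9% of the gated FBs), with medians of 4.15 and 0 UMIs per 10000 against 49.2 and 28.0 in the gated FBs. Ces1d ran from 0.486 to 29.9 UMIs per 10000 in the single-dose and from 0 to 26 in the repetitive bleomycin FBs, against 0 to 21.6 and 1.00 to 17 after PBS. Inmt had a median of 35.2 and 18.1 UMIs per 10000 against 104 and 51.7. Cdkn1a was found in 43.4% and 46.1% of the bleomycin FBs (26.4% and 29.0% after thinning), against 30.0% and 36.0% of the Ptprc-positive barcodes (13.9% and 18.3% after thinning).

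The gated barcodes were chosen on their gate UMIs, and the levels over that count are given as a description. In the repetitive bleomycin library the summed alveolar list rose from 5528 CPM in the 241 barcodes with no gate UMI, through 11343 CPM with 2 and 13110 CPM with 3, to 23392 CPM in the 223 with 10 or more, while the PBS FBs with 10 or more were at 31786 CPM. Elastic fibre genes ran from 5184 CPM to 9123, 9467 and 11916 CPM over the same barcodes, and Ces1d from 130 to 1284 CPM. The single-dose library did not give this order, since its barcodes with 3 gate UMIs were at 29182 CPM, but they were 5, with Inmt at 15006 CPM, and those with 10 or more were at 16104 CPM. Barcodes with no gate UMI held other cells too, with a summed leukocyte list of 7453 and 2662 CPM and Spp1 at 12292 and 4912 CPM, so the low end of these series is not one of FBs alone.

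**Figure D5:**
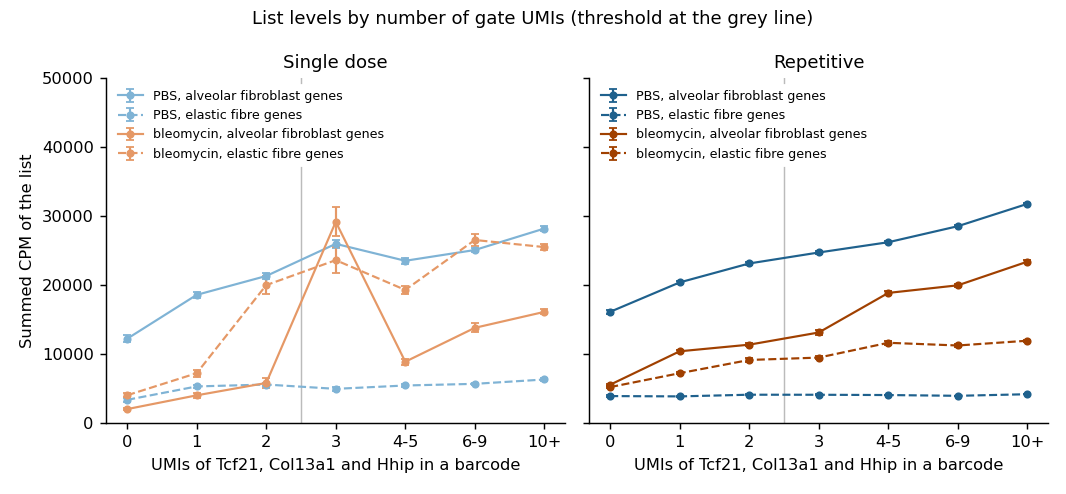
Summed CPM of the alveolar FB list (solid) and the elastic fibre list (dashed) by the number of Tcf21, Col13a1 and Hhip UMIs in a barcode, for barcodes that pass the other rules, with exact 95% Poisson intervals; the grey line is the threshold of 3 UMIs. The alveolar list rises across the whole range in the repetitive bleomycin library, from 5528 to 23392 CPM, and the single-dose peak at 3 UMIs comes from 5 barcodes.

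FBs in which Hhip UMIs outnumbered those of Tcf21 and Col13a1, called Hhip-led here, differed from the rest of the gate in other genes. In the repetitive experiment, the 92 bleomycin FBs led by Hhip had more of several ductal myofibroblast transcripts than the 292 without any Hhip UMI, with Lgr6 at 63.2 against 1.70 CPM, Fgf18 at 38.4 against 2.38 CPM, Mustn1 at 147 against 31.3 CPM and Aspn at 58.2 against 21.1 CPM. Of the 11 contractile and ductal genes with at least 20 UMIs 9 were higher, where 51.5% of all 10333 genes with that number were, and the exceptions were Tagln (242 against 377 CPM) and Tpm2 (99.1 against 108 CPM). The hedgehog targets Ptch1 and Gli1 were at 421 against 130 CPM and 24.8 against 7.15 CPM. The Hhip-led FBs had less of the alveolar genes, with Ces1d at 419 against 1261 CPM and Npnt at 1081 against 2225 CPM, and as much Eln (4036 against 4119 CPM). The split itself selects FBs with few Tcf21 and Col13a1 UMIs relative to Hhip, which is also used as a marker of ductal myofibroblasts. The lower alveolar genes, the higher ductal genes and the higher Ptch1 and Gli1 are therefore a description. The 35 Hhip-led PBS FBs also had more of the ductal genes, with Aspn at 502 against 5.58 CPM and Mustn1 at 476 against 12.9 CPM. The 160 bleomycin FBs with Hhip below Tcf21 and Col13a1 had Ces1d at 1110 CPM, Npnt at 2223 CPM, Lgr6 at 1.88 CPM and Ptch1 at 222 CPM, and differed from the FBs without Hhip in, among other genes, Ccl2 (45.2 against 136 CPM), the leukocyte marker Cd74 (55.9 against 7.15 CPM) and the cycling gene Top2a (14.4 against 0.681 CPM). Other genes moved with the Hhip-led FBs too. All 16 immediate early genes were higher in them than in the FBs without Hhip (median 0.92), and Dcn, of the adventitial list, was at 1401 against 422 CPM. The leukocyte list summed to 138 against 33.0 CPM (155 CPM in the FBs with less Hhip), with Lyz2 at 90.5 against 18.4 CPM, the epithelial list to 134 against 64.7 CPM, with Sftpc at 80.5 against 20.8 CPM, and the mural list to 138 against 97.4 CPM. Rgs5 and Krt8 were at 0 in both, Cd68, Cdh1 and Cspg4 in the Hhip-led FBs and Laptm5 in those without Hhip. The part of these cells or RNA in the Hhip-led levels was not tested. Median depths were 8337.5, 9735 and 8907 UMIs in the Hhip-led FBs, those with less Hhip and those with none. After a single dose the 6 Hhip-led FBs had Mustn1 at 862 against 19.3 CPM, and their number allows no more than these values.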

How the data were processed

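GFP+ lung cells of 4 conditions were analysed, each 1 library of cells pooled from 3 mice, and the 2 organoid libraries of the series were not used here. The authors aligned the reads with Cell Ranger 3.0.1 to mm10 and deposited the raw counts of UMIs for each gene symbol and barcode, not normalized. The paper's methods name Gencode M17 and a 3′ kit without separating the 2 experiments. The tables had 30830 and 30828 gene rows (single-dose PBS and bleomycin) and 32285 rows (repetitive).

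Counts were read with Python 3.11.15 and pandas 2.3.3, and genes were matched by symbol within an experiment. The gate was applied to each barcode, UMIs were summed per group, and CPM, log2 ratios after adding 1 CPM and exact 95% intervals were computed with numpy 2.4.6 and scipy 1.17.1. Intervals cover counting error only. Genes with at least 100 UMIs in the 2 groups together were tested against a log2 ratio of 1 in either direction, with no p-value. Shares were also computed as the exact expected share after thinning each barcode to 2000 UMIs. Free RNA was gauged by the share of barcodes with a Ptprc UMI that held the same gene, and no correction for it was made. Cells with a Ptprc UMI can make such a gene themselves, as stated for Spp1, so this share does not measure free RNA alone. No doublet caller was run, and FBs above 3 times the median UMIs of their group were left out as an alternative.

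The gate, its members and the 20 gene lists were chosen with earlier results of these data known, so no count here is independent support for a pattern. The genes named were members of those lists (the highest and lowest and those with a stated role), the 10 highest and 10 lowest mean ratios outside the lists past 1 in both experiments, the 6 highest and 6 lowest against injury-positive FBs, and the gate genes. Alternatives were a gate of 5 UMIs, of 3 UMIs per 10000 UMIs or without Hhip, a depth of 4000 UMIs, a mitochondrial limit of 10%, equal weight for each FB, a pseudocount of 5 CPM, filters at 500 UMIs or none, and centring on the median gene. The scripts were tested on simulated data with known changes. Figures were drawn with matplotlib 3.10.9.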

Additional observations from a re-analysis of the deposited data

Results flagged for a closer look

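In 5 of the genes on the lists, the only genes searched, the gated bleomycin FBs differed from the gated PBS FBs in opposite directions in the 2 experiments, by a log2 ratio of at least 0.5 in each, with the counting interval on 1 side of 0 in both and at least 100 UMIs. With 1 library per condition the difference between the experiments was not tested, and the experiments also differ in doses, timing and the number of gene rows. Vegfa, the endothelial growth factor, had log2 ratios of 0.84 after a single dose (63.8 against 35.3 CPM) and −0.60 after repetitive doses (68.4 against 104 CPM). The metallothionein genes Mt1 and Mt2 had ratios of 1.01 and 1.96 after a single dose and −1.55 and −0.86 after repetitive doses. Mt1 was at 919 against 456 CPM and at 214 against 628 CPM, and Mt2 at 797 against 205 CPM and at 58.7 against 108 CPM. Cd74, a leukocyte marker, had −1.42 and 1.67, from 39.1 against 106 CPM and 23.4 against 6.69 CPM. Scgb1a1, the secretoglobin of club cells, had −6.31 and 1.28, from 7.81 against 698 CPM and 42.5 against 16.9 CPM.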

How the results depend on the processing

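No paired analysis was possible because each condition had 1 library, and no library could be left out. Of the values that answer a comparison, 166 under an alternative stayed within their counting interval or within 1.5 times a count, and 49 moved. The bleomycin over PBS medians of the alveolar, elastic fibre, collagen and fibrotic injury lists kept their sign under the alternatives run, whereas 17 of the 102 medians over all lists and comparisons changed sign under at least 1 alternative. Among these were the single-dose elastic fibre median against injury-positive FBs (0.13, lowest −0.05), the repetitive collagen median there (−0.18, highest 0.02), and the single-dose fibrotic injury and acute phase medians against barcodes below the alveolar threshold (0.17 and 0.19, lowest −0.0060 and −0.18). The cause was not tested beyond what each setting itself changes.

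The share of barcodes in the gate (single-dose PBS and bleomycin, then repetitive PBS and bleomycin) was 36.1%, 6.29%, 41.6% and 6.60% with 5 UMIs, 53% and 10.6% in the repetitive libraries at 4000 UMIs, 7.69% in repetitive bleomycin without Hhip, 49.9% (single-dose PBS) and 12.8% (repetitive bleomycin) with 3 UMIs per 10000, and 24.9%, 19.0% and 8.03% after thinning (single-dose PBS, repetitive PBS and bleomycin). With the injury and adventitial genes not required at 0, an alternative added after seeing the data, it was 61.2%, 50.6%, 70.5% and 45.8%. Of bleomycin over PBS, genes past 1 numbered 157 higher and 172 lower after a single dose, 41 and 59 with at least 500 UMIs, and 1864 and 1048 with no filter. After repetitive doses they numbered 462 and 228, 204 and 150 with at least 500 UMIs, 892 higher with no filter, and 300 and 121 with 5 CPM added.

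Medians of bleomycin over PBS moved as follows. After a single dose the elastic fibre median was 1.56 with equal weight for each FB, the collagen median 1.24 with at least 500 UMIs, and the fibrotic injury median 1.91 with no filter. After repetitive doses the elastic fibre median was 1.21 when centred, and the fibrotic injury median was 1.49 with 5 gate UMIs, 1.78 without Hhip, 1.73 per 10000 UMIs, 1.81 with equal weight, 1.59 with 5 CPM added, 1.34 with at least 500 UMIs, 1.77 when centred, 1.75 without Spp1 and 1.54 without Spp1 and Fst, both added after seeing the data. Against injury-positive FBs, with comparisons added after seeing the data, the alveolar median was 0.55 (both experiments) and the fibrotic injury median −0.30 and −0.34 where the alveolar threshold was met too, and with at most 10000 UMIs the single-dose alveolar median was 0.77 and the repetitive fibrotic injury median −0.35. The repetitive alveolar median was 0.82 there with 5 gate UMIs and 0.80 without Hhip, and against barcodes below the alveolar threshold it was 1.11 with 5 gate UMIs, 1.52 at 4000 UMIs and 1.10 with equal weight. Reversed were the single-dose contractile median against barcodes below the alveolar threshold, −0.39 without Hhip, and the repetitive epithelial marker median, 2.49 per 10000 UMIs, 1.13 without FBs above 3 times the median UMIs and 0.23 with equal weight. Leaving out barcodes shared between libraries, also added after seeing the data, moved neither the alveolar nor the fibrotic injury median beyond its counting interval.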

Other observations

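Acta2 and Tagln were higher in the gated bleomycin FBs than in the gated PBS FBs. Acta2, the smooth muscle actin, was at 267 against 22.3 CPM after a single dose and at 133 against 14.0 CPM after repetitive doses, and Tagln, which encodes transgelin, at 536 against 157 CPM and 294 against 137 CPM. Later contractile genes stayed low, with Cnn1 at 3.91 and 0.375 CPM and Myh11 at 2.60 and 5.06 CPM in the bleomycin FBs. The median of the contractile and ductal list was 1.00 over 6 genes and 1.19 over 8 genes, with 3 and 6 of them past 1, against 3.53% and 4.14% of all genes tested. The single-dose median ran from 0.47, with Hhip left out of the gate, to 1.76, with at least 500 UMIs. After a single dose the 6 FBs in which Hhip UMIs outnumbered those of Tcf21 and Col13a1 held 73 of 205 Acta2 UMIs, 164 of 412 Tagln UMIs, 38 of 55 Myl9 UMIs and all UMIs of Cnn1 and Myh11, and the other 70 had Acta2 at 189 CPM, Tagln at 355 CPM and Myl9 at 24.3 CPM, against 19.5, 149 and 28.6 CPM in the PBS FBs of the same kind. Pdgfrb, a receptor of pericytes and activated FBs, was at 66.4 against 16.7 CPM and at 85.6 against 15.8 CPM, while the pericyte marker Rgs5 had no UMI in the bleomycin FBs of either experiment.

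Plasma cell markers were higher in the repetitive bleomycin library outside the gate than inside it. Igkc, an immunoglobulin light chain gene, was at 20.1 CPM in the gated bleomycin FBs and 624 CPM in the injury-positive FBs, and at 2.24 CPM in the gated PBS FBs. The 4 markers summed to 33.5 and 893 CPM in the 2 classes of the bleomycin library. Their median log2 ratio of gated over injury-positive FBs was −4.52 and ran from −5.21 to −0.99 under the alternatives, so its size depended on the setting.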
